A study of Rattus norvegicus with 24 samples.

Results

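Ribosome footprints of liver were compared between 3 old rats aged 24 months and 3 young rats aged 6 months. This takes 6 of the 24 libraries of a study that also holds RNA-seq, titled mRNA, and the brain of the same animals. The members are all transcripts expressed in these libraries. Of 22938 transcripts listed, 14987 had counts in the 6 libraries and 11396 passed the filter on low counts and were tested. Age is the only labelled difference between the groups; the sources used here give no strain or sex.

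Ribosome profiling digests RNA that no ribosome covers and sequences what is left, so the number of footprints on a transcript follows how many ribosomes sit on it. RNA-seq of the same tissue counts the transcript itself. Liver makes most proteins of blood plasma along with the enzymes of sugar, fat, nitrogen and drug metabolism, and a small group of very abundant transcripts carries much of that synthesis. The deposited tables name transcripts by identifier, and 0 of the 22938 identifiers could be paired with a gene name. Functions are therefore not stated, and the members are described by their abundance, by the organ they are enriched in and by a length-like number that stands beside each transcript. A whole-tissue sample cannot separate fewer cells of a type from less RNA per cell.

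Young libraries held 11839887, 15175880 and 17584871 counts, and old ones 10702456, 12645135 and 15366125, so the ages overlapped in depth (two-sided exact permutation p = 0.5; 3 against 3 cannot give less than 0.1). Log2 levels correlated across transcripts at 0.967 to 0.987 within young, 0.955 to 0.976 within old and 0.951 to 0.975 between ages (Pearson's r, a description). Old animal 3 stood farthest from the rest: its scaling factor was 1.13 against 0.950 to 1.005 in the other libraries, and at equal depth 13851 transcripts had a count in it against 13059 to 13491. Differences without that library are given beside those of the main classes. Transcripts enriched in liver RNA-seq took 71.4% to 75.9% of the counts of every footprint library and brain-enriched ones 0.607% to 0.852%. Known hepatocyte markers could not be looked up without names.

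Few single transcripts passed the test across all transcripts, and they were higher in old liver. The edgeR quasi-likelihood test called 2 transcripts higher (0.0176% of those tested) and 0 lower (0%), so 0.0176% either way at an adjusted p under 0.05. At an adjusted p under 0.10 there were 35 higher (0.307%) and 16 lower (0.14%). An unadjusted p under 0.05 was reached by 721 higher (6.33%) and 669 lower transcripts (5.87%), or 12.2% in all. DESeq2 called 135 higher and 86 lower and limma-voom 1 higher and 0 lower. The edgeR count of 2 rested on which animals entered: leaving out young animal 1 gave 96 calls, old animal 3 gave 37 and old animal 2 gave 7, while leaving out young animal 3 gave 1 and young animal 2 gave 0 (838 at an unadjusted p under 0.05). In 1043 transcripts every old library lay above every young one (9.15%), and in 1086 every old library lay below (9.53%), which is 18.7% without overlap. A fitted change of 2-fold or more was found for 426 transcripts upward (3.74%) and 121 downward (1.06%). The 426 had a median level of 1.96 CPM (counts scaled to library size with TMM factors), against 10.9 CPM over all tested transcripts.

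The balance of direction followed abundance. The 11396 transcripts were put in 5 classes by their mean level over the 6 libraries, both ages together. These classes rest on counts that are not divided by length, so they order transcripts by footprints and not by ribosomes per base. Median log2 fold changes, old over young, were 0.30 under 1 CPM (464 transcripts), 0.091 from 1 to 10 CPM (4975), -0.014 from 10 to 100 CPM (4941), -0.11 from 100 to 1000 CPM (912) and -0.22 at 1000 CPM or more (104). The median over all tested transcripts was 0.015. Across transcripts, which are not independent, fold change and mean level had a Spearman's rho of -0.22.

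Transcripts whose libraries did not overlap between ages changed sides along this order. Under 1 CPM, 12.7% had every old library higher and 3.88% every old library lower. From 1 to 10 CPM the shares were 10.9% and 5.49%, and from 10 to 100 CPM 7.85% and 10.99%. From 100 to 1000 CPM, 49 transcripts (5.37%) were higher and 212 (23.2%) lower without overlap. In the most abundant class 5 of 104 (4.81%) were higher and 40 (38.5%) lower. Over all tested transcripts these shares were 9.15% and 9.53%. The shares under 1 CPM are a description only, since a transcript this low passed the count filter through its higher libraries.

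**Figure D1:**
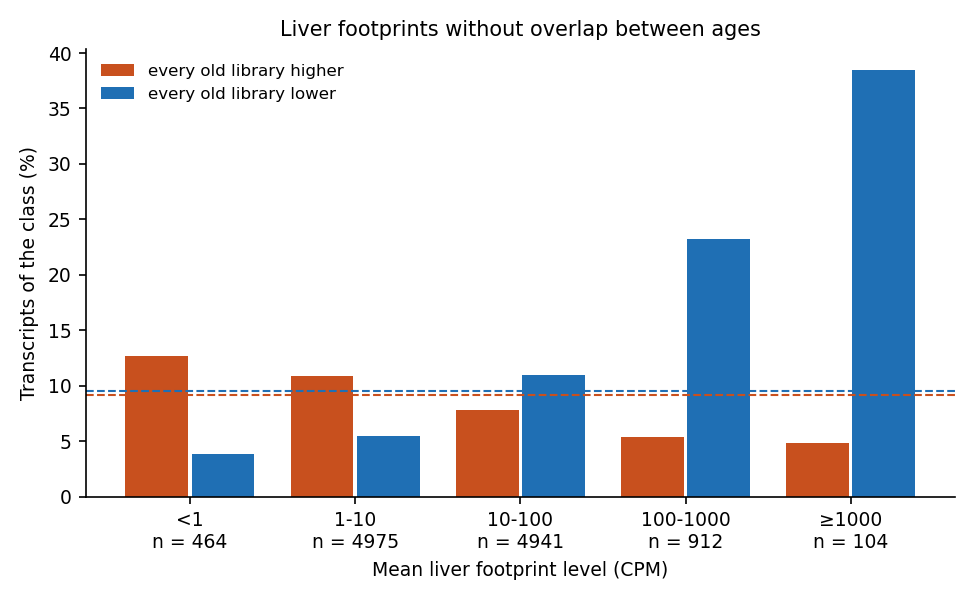
Share of transcripts (vertical axis, %) in each class of mean liver footprint level (horizontal axis, CPM, with the number of transcripts) in which every old library was above (orange) or below (blue) every young library; dashed lines give the shares over all tested transcripts, 9.15% and 9.53%. The share with every old library lower goes from 5.49% at 1 to 10 CPM to 38.5% at 1000 CPM or more; the class under 1 CPM holds only transcripts that passed the count filter through their higher libraries.

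At an unadjusted p under 0.05 in edgeR, which 6.33% of all tested transcripts reached as higher and 5.87% as lower, the balance also differed by class. Under 1 CPM, 34 transcripts were higher (7.33%) and 11 lower (2.37%), and from 1 to 10 CPM 404 (8.12%) were higher and 152 (3.06%) lower. From 10 to 100 CPM, 252 (5.10%) were higher and 330 (6.68%) lower. From 100 to 1000 CPM, 26 (2.85%) were higher and 149 (16.3%) lower, and at 1000 CPM or more 5 (4.81%) were higher and 27 (26.0%) lower. The fitted spread between replicates, as the median biological coefficient of variation, was 0.387 under 1 CPM and 0.259 from 1 to 10 CPM. It was 0.175 from 10 to 100 CPM, 0.190 from 100 to 1000 CPM and 0.207 above. Its part in the balance of direction was not tested. Both transcripts past an adjusted p of 0.05 lay between 1 and 100 CPM.

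The same shift was measured library by library, as the median deviation of a class from its transcripts' own means, less that of all tested transcripts. Subtracting the median of all tested transcripts takes out most of a library's scaling factor. In the class of 1000 CPM or more, young libraries lay at 0.049, 0.21 and 0.12 on the log2 scale and old ones at -0.060, -0.056 and -0.32. The 3 old libraries were all below the 3 young ones, with a difference of -0.27 in the mean (0.13 ± 0.082 in young, -0.15 ± 0.15 in old, SD, n = 3; exact permutation p = 0.1, the smallest possible, 0.217 after adjustment over 13 classes). Old animal 3 was the lowest, and without it the difference was -0.17.

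Transcripts from 100 to 1000 CPM showed a smaller difference of the same sign. Young libraries lay at 0.051, 0.097 and 0.042, and old ones at -0.017, -0.031 and -0.18. The groups did not overlap, and the difference was -0.14, or -0.089 without old animal 3. From 10 to 100 CPM the difference was -0.028, with young values of 0.0083, 0.013 and 0.0090 and old values of -0.0044, -0.013 and -0.036.

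Relative to all tested transcripts, low classes went the other way. From 1 to 10 CPM, young libraries lay at -0.024, -0.047 and -0.028 and old ones at 0.014, 0.027 and 0.066, again without overlap, a difference of 0.068. Under 1 CPM the values were -0.026, -0.097 and -0.023 in young and 0.029, 0.11 and 0.21 in old libraries, a difference of 0.17, or 0.10 without old animal 3. Transcripts of this lowest class passed the count filter through their higher libraries only, so their median says little about all transcripts this low: with no filter the difference was 0.039. All 5 classes were without overlap, each with an exact permutation p of 0.1 (0.217 adjusted over 13 classes), and p cannot be smaller with 3 against 3. The 5 classes make up all tested transcripts, whose median was subtracted from each. Their values therefore depend on each other and are not 5 separate results.

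**Figure D2:**
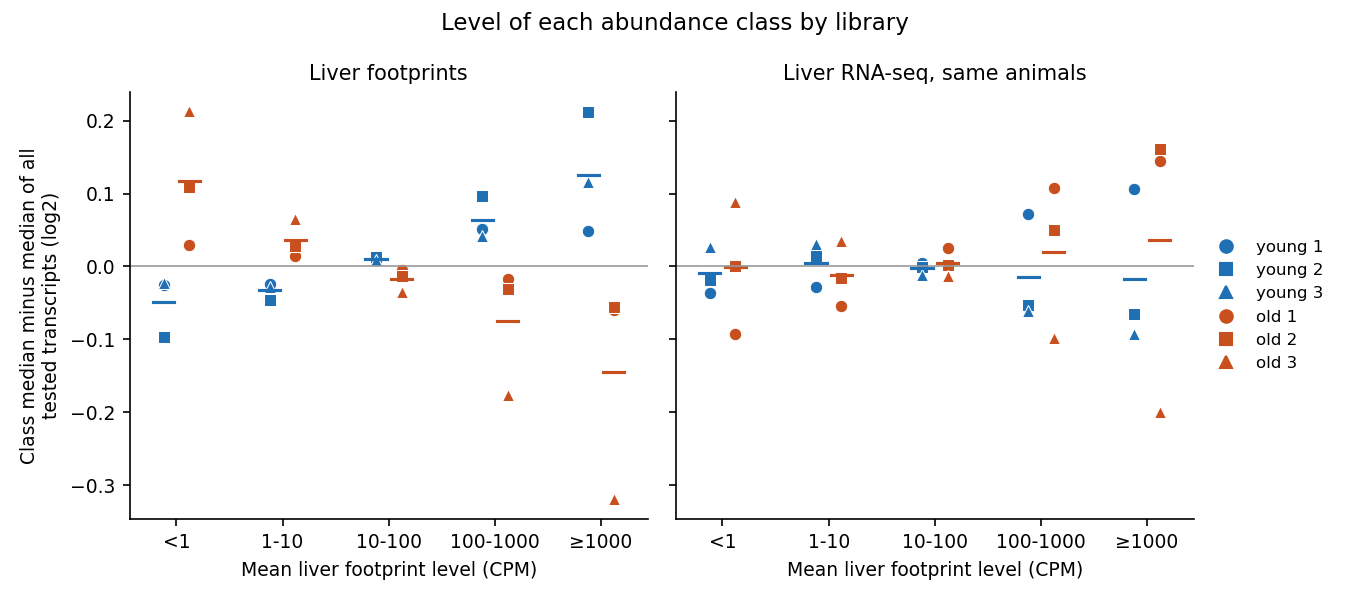
Each point is 1 library of the liver footprints (left) or of RNA-seq from the same 6 livers (right): the median log2 deviation of an abundance class less that of all tested transcripts (vertical axis), by class of mean footprint level in CPM (horizontal axis); bars are group means, n = 3. In footprints the old libraries lie above the young ones in the 2 lowest classes and below them in the 3 highest, and in RNA-seq the ages overlap in every class.

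Counted per animal, the direction held in each old liver. Among the 104 transcripts at 1000 CPM or more, 71 (68.3%) were below the young mean in old animal 1, 74 (71.2%) in old animal 2 and 82 (78.8%) in old animal 3. All 3 old animals were below the young mean for 59 of them (56.7%) and above it for 12. From 100 to 1000 CPM the shares below were 62.6%, 63.0% and 68.2%, and from 1 to 10 CPM they were 44.6%, 44.0% and 39.6%. Over all tested transcripts they were 48.8%, 49.6% and 47.4%. All 3 old animals were below for 393 (43.1%) and above for 126 from 100 to 1000 CPM. From 10 to 100 CPM they were below for 1240 (25.1%) and above for 1036. From 1 to 10 CPM the counts were 792 (15.9%) and 1431, and under 1 CPM 56 (12.1%) and 154. No share over all tested transcripts was computed for this count. The classes can therefore be set only beside each other, and no class is read here as above or below a common share.

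The share of counts taken by the most abundant class overlapped between ages and so did that of its most abundant member. The class took 57.9%, 57.4% and 57.1% of counts in young libraries and 57.7%, 59.0% and 54.8% in old ones (exact permutation p = 0.9). Its most abundant member alone took 14.5%, 10.2% and 11.9% in young and 17.7%, 18.8% and 12.5% in old libraries, which overlapped. With that transcript removed, the rest of the class took 50.8%, 52.6% and 51.4% of the remaining counts in young and 48.5%, 49.5% and 48.3% in old libraries. These shares did not overlap: 51.6 ± 0.896% in young and 48.8 ± 0.653% in old liver (SD, n = 3; exact permutation p = 0.1, 0.267 adjusted over 16 shares). At the other end, transcripts from 1 to 10 CPM took 2.11%, 2.06% and 2.17% in young and 2.27%, 2.27% and 2.76% in old libraries.

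RNA-seq of the same livers did not separate the ages by abundance. For the 104 most abundant transcripts RNA-seq values were 0.11, -0.065 and -0.093 in young and 0.14, 0.16 and -0.20 in old animals, with a difference of 0.053 (exact permutation p = 0.8). Old animal 3 was the lowest in both assays, and without it the RNA-seq difference was 0.15, opposite in sign to that of footprints. Taking each animal's RNA-seq value from its footprint value gave -0.058, 0.28 and 0.21 in young and -0.21, -0.22 and -0.12 in old animals. These did not overlap, and the difference was -0.32 (exact permutation p = 0.1, 0.124 adjusted over 26 such differences). Most of the 26 were without overlap at the same adjusted p, and they depend on each other. The lack of overlap is thus not particular to this class. With each animal left out in turn the difference of -0.32 ran from -0.39 to -0.22. From 100 to 1000 CPM the corresponding values were -0.021, 0.15 and 0.10 in young and -0.12, -0.081 and -0.079 in old animals, a difference of -0.17. From 1 to 10 CPM they were 0.0048, -0.061 and -0.059 against 0.068, 0.043 and 0.031, a difference of 0.086.

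Organ of enrichment gave another division. A transcript was taken as liver-enriched where its mean log2 level in liver RNA-seq was at least 2 above that in brain RNA-seq (4-fold), as brain-enriched where it was at least 2 below, and as shared otherwise. RNA-seq libraries of both ages made this division and footprints did not enter it, although the animals are the same. Median log2 fold changes of footprints were -0.099 for 1736 liver-enriched, 0.019 for 8805 shared and 0.18 for 855 brain-enriched transcripts. At an unadjusted p under 0.05 in edgeR, 136 liver-enriched transcripts (7.83%) were higher and 276 (15.9%) lower, beside 6.33% and 5.87% of all tested transcripts. The counts were 509 (5.78%) and 366 (4.16%) among shared transcripts and 76 (8.89%) and 27 (3.16%) among brain-enriched ones.

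Liver-enriched transcripts did not separate the ages as a whole. Their library values were 0.090, 0.078 and -0.0072 in young and -0.018, 0.021 and -0.18 in old liver, so young animal 3 lay within the old range. The difference was -0.11 (exact permutation p = 0.2), and -0.055 without old animal 3. Without overlap, 346 of the 1736 (19.9%) were lower and 145 (8.35%) higher in old liver, against 9.53% and 9.15% of all tested transcripts.

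Within this class the medians also differed in sign by abundance. The 339 liver-enriched transcripts from 1 to 10 CPM had a median log2 fold change of 0.22, the 782 from 10 to 100 CPM -0.069, the 509 from 100 to 1000 CPM -0.22 and the 94 at 1000 CPM or more -0.24. In the 509, young libraries lay at 0.11, 0.15 and 0.049 and old ones at -0.026, -0.040 and -0.27, without overlap, a difference of -0.22, or -0.14 without old animal 3. In the 94 the difference was -0.28, or -0.19 without that animal. Of the 509, 150 (29.5%) were lower and 20 (3.93%) higher in every old library, against 9.53% and 9.15% of all tested transcripts. Of the 94, 38 (40.4%) were lower and 3 (3.19%) higher. From 1 to 10 CPM the ages overlapped, at 0.020, -0.071 and -0.17 in young and 0.014, 0.13 and 0.11 in old libraries. From 10 to 100 CPM they overlapped too, at 0.11, 0.053 and -0.032 in young and -0.019, 0.055 and -0.17 in old libraries.

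Shared transcripts of the same abundance had values nearer to 0. The 394 from 100 to 1000 CPM had a median log2 fold change of -0.050, with library values of -0.0019, 0.055 and 0.032 in young and -0.014, -0.024 and -0.090 in old liver, also without overlap (difference -0.071, or -0.045 without old animal 3). Of them 62 (15.7%) were lower and 28 (7.11%) higher in every old library, beside 9.53% and 9.15% over all tested. Only 10 shared transcripts reached 1000 CPM, with a median of -0.00020. Whether liver-enriched and shared transcripts of equal abundance differ in their shift was not tested.

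Brain-enriched transcripts are scarce in liver, with a median of 2.44 CPM, and stood higher in every old liver library. Their library values were -0.041, -0.10 and -0.059 in young and 0.014, 0.042 and 0.15 in old libraries, without overlap, a difference of 0.14 (exact permutation p = 0.1, 0.217 adjusted over 13 classes). Old animal 3 had the highest value and the difference was 0.091 without it. The 600 between 1 and 10 CPM had a median log2 fold change of 0.19 and the 119 between 10 and 100 CPM 0.13, against 0.070 for 4036 and -0.011 for 4040 shared transcripts of the same classes. In the 119, young libraries lay at -0.029, -0.065 and -0.048 and old ones at 0.042, 0.0031 and 0.079. Every old library was higher for 114 of the 855 (13.3%) and lower for 31 (3.63%), against 9.15% and 9.53% of all tested transcripts. With no filter on low counts the difference of 0.14 was 0.048.

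**Figure D3:**
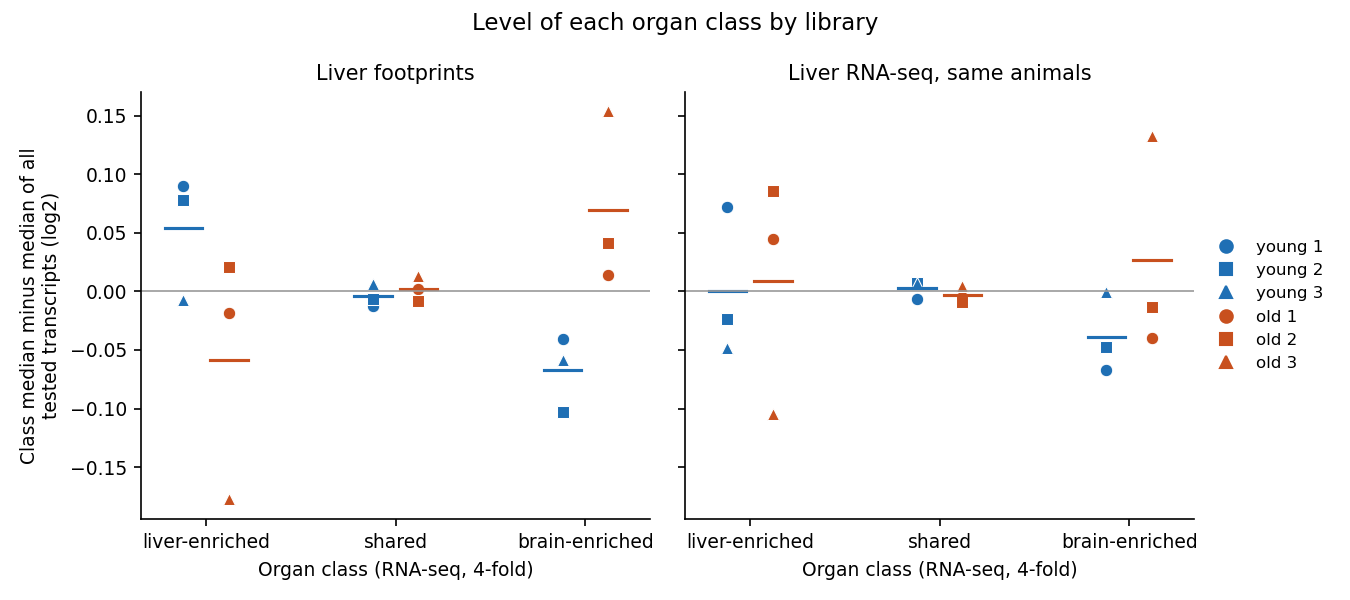
Each point is 1 library of liver footprints (left) or liver RNA-seq of the same animals (right): the median log2 deviation of an organ class less that of all tested transcripts (vertical axis), by class of enrichment in RNA-seq (horizontal axis); bars are group means, n = 3. Brain-enriched transcripts separate the ages in footprints and overlap in RNA-seq, and liver-enriched ones overlap in both.

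In RNA-seq all 3 organ classes overlapped between ages. Liver-enriched transcripts lay at 0.072, -0.023 and -0.048 in young and 0.045, 0.086 and -0.10 in old animals, and brain-enriched ones at -0.067, -0.048 and -0.00073 in young and -0.040, -0.013 and 0.13 in old animals. The value of old animal 3 for brain-enriched transcripts was thus high in both assays, and the RNA-seq difference of this class, 0.065, was 0.0085 without that animal. Less their RNA-seq value, liver-enriched footprints lay at 0.018, 0.10 and 0.041 in young and -0.063, -0.065 and -0.073 in old animals, without overlap (difference -0.12, exact permutation p = 0.1, 0.124 adjusted over 26). For brain-enriched transcripts the same values overlapped, at 0.027, -0.055 and -0.058 in young and 0.054, 0.055 and 0.021 in old animals.

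Single transcripts that separated the ages in footprints often did so in RNA-seq as well. Of 1019 higher in every old footprint library and tested in both assays, 371 (36.4%) were also higher in every old RNA-seq library, against 14.4% of all 11113 transcripts tested in both. Of 1073 lower ones, 301 (28.1%) were also lower in RNA-seq, against 15.2%. Among liver-enriched transcripts the shares were 82 of 145 higher (56.6%) and 124 of 346 lower (35.8%). In the class of 1000 CPM or more, 9 of 40 lower transcripts (22.5%) were lower in RNA-seq too, against 10.6% of the class. Both assays come from the same 6 livers, so these shares are not independent of each other.

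The length-like number carries no definition in the files. It runs from -17 to 8007 over all transcripts that have it, and from 6 upward among those tested. Tested transcripts were put in 5 equal classes by it: 6 to 203, 203 to 340, 340 to 500, 500 to 780 and 780 to 8007. Spearman's rho of footprint level with this number, across transcripts within a library, was 0.114, 0.0914 and 0.0989 in young and 0.111, 0.121 and 0.109 in old liver. The ages overlapped, with a difference of 0.012 (exact permutation p = 0.3). Fold change itself had a rho of 0.057 with the number.

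Footprint medians by length class stayed close to 0. From the lowest class to the highest, median log2 fold changes were -0.0098, 0.0023, -0.0073, 0.024 and 0.043. In the lowest class young libraries lay at -0.045, 0.060 and 0.018 and old ones at -0.0090, -0.048 and 0.019. In the highest class they lay at 0.013, -0.041 and -0.021 and at -0.0023, 0.026 and 0.021. Both overlapped, with differences of -0.024 and 0.032 (exact permutation p = 0.5 and 0.2). With each animal left out in turn these ran from -0.049 to 0.0011 and from 0.022 to 0.048. Transcripts lower at an unadjusted p under 0.05 in edgeR had 375 as their median length-like value and higher ones 425, where all tested transcripts had 414.

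Split by length, the abundance classes kept their signs except in the highest length class from 10 to 100 CPM. Among transcripts from 100 to 1000 CPM, the old-minus-young difference from the lowest length class to the highest was -0.18, -0.14, -0.18, -0.14 and -0.059, and the ages did not overlap in any of the 5. Without old animal 3 these were -0.15, -0.071, -0.11, -0.088 and -0.046. From 1 to 10 CPM it was 0.037, 0.058, 0.040, 0.11 and 0.13, without overlap in all but the lowest length class, and 0.024, 0.032, 0.042, 0.098 and 0.10 without old animal 3. From 10 to 100 CPM it was -0.065, -0.049, -0.036, -0.018 and 0.0073, and the ages overlapped in all but the next to lowest. Without old animal 3 these were -0.070, -0.033, -0.012, -0.0048 and 0.018, and the last was -0.0039 without young animal 2. With the trend of level on the length-like number removed from each library, the difference at 1000 CPM or more was -0.27 and that from 1 to 10 CPM 0.074.

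Shares of counts by length, which weigh each transcript by its counts, did not follow the medians in the highest length class. Its share was lower in every old library, while its median difference was 0.032, with overlap. Which transcripts moved the shares was not tested. The highest length class took 28.4%, 30.0% and 29.7% of counts in young and 25.7%, 26.8% and 27.5% in old libraries (29.4 ± 0.82% and 26.7 ± 0.89%, SD, n = 3; exact permutation p = 0.1, 0.267 adjusted over 16). The next class down took 28.1%, 25.3% and 26.8% in young and 31.7%, 32.0% and 27.3% in old libraries, which overlapped. The next to lowest class was also lower in every old library. It took 12.85%, 12.9% and 12.82% in young and 12.56%, 12.04% and 11.51% in old libraries (exact permutation p = 0.1, 0.267 adjusted over 16).

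**Figure D4:**
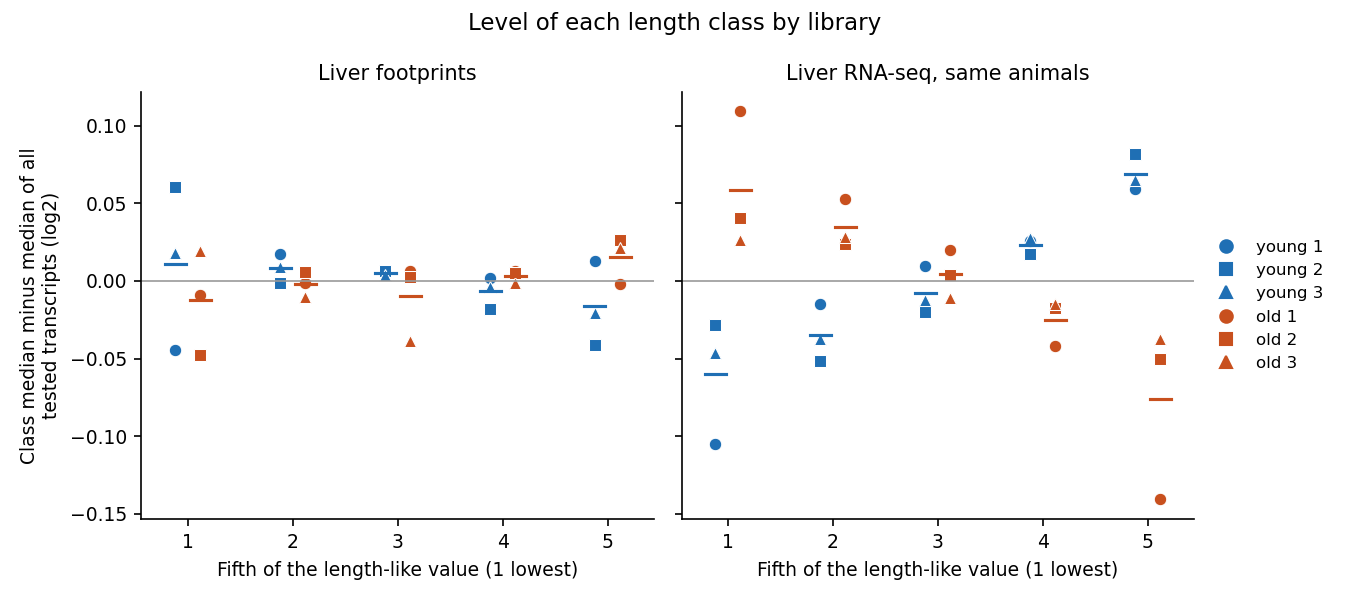
Each point is 1 library of liver footprints (left) or liver RNA-seq of the same animals (right): the median log2 deviation of a length class less that of all tested transcripts (vertical axis), by class of the length-like number from lowest to highest (horizontal axis); bars are group means, n = 3. Footprints overlap between ages in all 5 classes, while in RNA-seq old libraries are higher in the 2 lowest classes and lower in the 2 highest.

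RNA-seq of the same livers differed from footprints here. Old less young RNA-seq values were 0.12 for the lowest length class and -0.14 for the highest, both without overlap. Less RNA-seq, footprints of the lowest length class lay at 0.061, 0.089 and 0.064 in young and -0.12, -0.089 and -0.0071 in old animals. Those of the highest class lay at -0.046, -0.12 and -0.085 in young and 0.14, 0.076 and 0.059 in old animals. The differences were -0.14 and 0.18 (exact permutation p = 0.1 for each, 0.124 adjusted over 26). The ratio of footprints to RNA-seq thus separated the ages by length where RNA-seq did and footprints alone did not.

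A test of each transcript's ratio of footprints to RNA-seq, the interaction of age and assay in edgeR over 12 liver libraries, called 0 of 12462 transcripts higher or lower (0%). An unadjusted p under 0.05 was reached by 616 higher (4.94%) and 638 lower (5.12%), or 10.1%. Footprints and RNA-seq of 1 animal deviate together, and with the animal as a block 332 were called higher (2.66%) and 509 lower (4.08%), 6.75% in all. That count depended on single animals: leaving out young animal 1 gave 1740 calls and young animal 2 gave 43, and leaving out old animals 1, 2 and 3 in turn gave 185, 357 and 460. The balance of direction changed as well: there were more higher than lower calls when young animal 2 (28 and 15), old animal 1 (109 and 76) or old animal 2 (222 and 135) was left out, and more lower ones when young animal 1 (546 higher, 1194 lower), young animal 3 (244, 388) or old animal 3 (200, 260) was.

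Blocked calls fell unevenly over the classes of the 11396 transcripts tested in footprints, of which 2.85% were called higher and 4.47% lower. Among transcripts from 100 to 1000 CPM, 23 were called higher (2.52%) and 173 lower (19.0%), and at 1000 CPM or more 1 was called higher and 21 lower (20.2%). From 1 to 10 CPM 129 were called higher (2.59%) and 25 lower (0.503%). Liver-enriched transcripts gave 47 higher and 186 lower (10.7%). By length, the lowest class gave 18 higher and 165 lower and the highest 156 higher and 30 lower. Median log2 changes of the ratio in the blocked fit were -0.34 at 1000 CPM or more, -0.26 from 100 to 1000 CPM and 0.043 from 1 to 10 CPM, against -0.067 over all 11396.

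Footprints of brain from the same animals served as the other organ. The interaction of age and organ in edgeR over 12 footprint libraries called 2 of 14440 transcripts (0.0139%), with 12.3% at an unadjusted p under 0.05. With the animal as a block it called 4 (0.0277%), although deviations of liver and brain footprints of an animal correlated at only -0.025 to 0.147. With old animals 1, 2 and 3 left out in turn the count of 2 became 1, 91 and 34, and with young animals 1, 2 and 3 left out it became 21, 1 and 0 (1301 at an unadjusted p under 0.05 in the last case). Liver-enriched transcripts lay at -0.12, -0.15 and -0.13 in young and 0.053, 0.30 and 0.027 in old brain footprints, higher in all 3 old libraries without overlap, and highest in old animal 2. Transcripts at 1000 CPM or more in liver lay at -1.58, -1.52 and -1.44 in young and 0.26, 4.68 and 0.017 in old brain footprints. In brain RNA-seq they lay at -0.29, -0.37 and -0.32 in young and -0.15, 1.52 and -0.059 in old animals. Old animal 2 thus stood far above the other brains in both assays. The part of these counts in the comparison was not tested, so no difference between organs is given for liver-enriched transcripts.

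Brain-enriched transcripts had opposite signs in the 2 organs. In brain footprints they lay at 0.030, 0.033 and 0.029 in young and -0.038, -0.060 and -0.031 in old animals, so old brain was lower where old liver was higher. Liver value less brain value was -0.070, -0.14 and -0.088 in young and 0.051, 0.10 and 0.18 in old animals, without overlap (difference 0.21, exact permutation p = 0.1, 0.124 adjusted over 26). The old brain of animal 2 was the lowest of the 3, and old animal 3 had the highest difference. With each animal left out the difference between organs ran from 0.16 to 0.25. The liver side of it depends on the count filter, being 0.048 in place of 0.14 with no filter.

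The transcripts named were the 2 rising and the 2 falling ones with the smallest p among those without overlap and with a mean log2 CPM of at least 0. Their separation between ages is part of that rule and adds no support. ENSRNOT00000026303, a shared transcript, had 15, 30 and 50 footprint counts in young and 281, 229 and 476 in old liver, or 1.32, 2.08 and 2.89 against 26.2, 18.5 and 27.5 CPM. Its log2 fold change was 3.48 (SE 0.284, edgeR adjusted p = 0.00346), and RNA-seq counts went from 31, 75 and 96 to 474, 473 and 514 (2.47 on the log2 scale, edgeR adjusted p = 0.0547). Brain footprints of it were 66.9, 99.5 and 183 CPM in young and 178, 203 and 167 CPM in old animals, which overlapped. In footprints old liver thus stayed below brain. In RNA-seq the organs overlapped, at 18.0, 20.9 and 18.1 CPM in old liver and 17.5, 23.5 and 21.7 CPM in old brain. The class of this transcript rests on RNA-seq of both ages together. In young animals its RNA-seq mean was 3.42 CPM in liver and 15.5 CPM in brain. Its ratio of footprints to RNA-seq in liver rose by 0.99 on the log2 scale in the blocked edgeR fit (adjusted p = 0.0395) and by 0.97 without the block (adjusted p = 0.537).

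ENSRNOT00000010238, also shared, had 6, 0 and 2 footprint counts in young and 247, 121 and 324 in old liver, and 12, 6 and 3 against 609, 308 and 499 RNA-seq counts. It was nearly without counts in every young liver library of either assay. Its class rests on RNA-seq of both ages together: in young animals the mean was 0.350 CPM in liver and 17.5 CPM in brain. The log2 fold change was 6.44 in footprints (SE 0.660, edgeR adjusted p = 0.0465) and 5.66 in RNA-seq, where it was 1 of 2 calls in 12198 transcripts (0.0164%). In brain footprints it lay at 52.7, 50.7 and 56.4 CPM in young and 43.1, 45.6 and 49.0 CPM in old animals. Old liver footprints, at 23.0, 9.76 and 18.7 CPM, reached part of that level. In RNA-seq the organs overlapped, at 23.2, 13.6 and 17.5 CPM in old liver and 16.5, 17.3 and 16.7 CPM in old brain. The effect of age differed between the organs by 6.64 (SE 0.608, edgeR adjusted p = 0.00079). Its call in liver footprints was lost in 5 of 18 alternatives, with adjusted p up to 0.197, and that of ENSRNOT00000026303 in 1 (adjusted p = 0.0728, without young animal 2).

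ENSRNOT00000061871 and ENSRNOT00000007174 had the smallest p on the falling side and did not pass the test. ENSRNOT00000061871, liver-enriched, had 66, 251 and 83 footprint counts in young and 4, 7 and 3 in old liver (log2 fold change -4.69, SE 0.674, edgeR adjusted p = 0.0573). Its RNA-seq counts were 75, 184 and 86 in young and 14, 12 and 11 in old liver (-3.58, adjusted p = 0.0547), and brain footprints held 4, 0, 0, 0, 4 and 0. In both assays young animal 2 was the highest and the old animals lay close together. ENSRNOT00000007174, liver-enriched too, had 115, 306 and 209 footprint counts in young and 32, 13 and 48 in old liver (-2.67, SE 0.408, adjusted p = 0.0649), beside RNA-seq counts of 137, 393 and 300 against 97, 32 and 87. Their adjusted p ranged up to 0.227 and 0.386 over 18 alternatives and was under 0.05 in 6 and 3 of them.

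**Figure D5:**
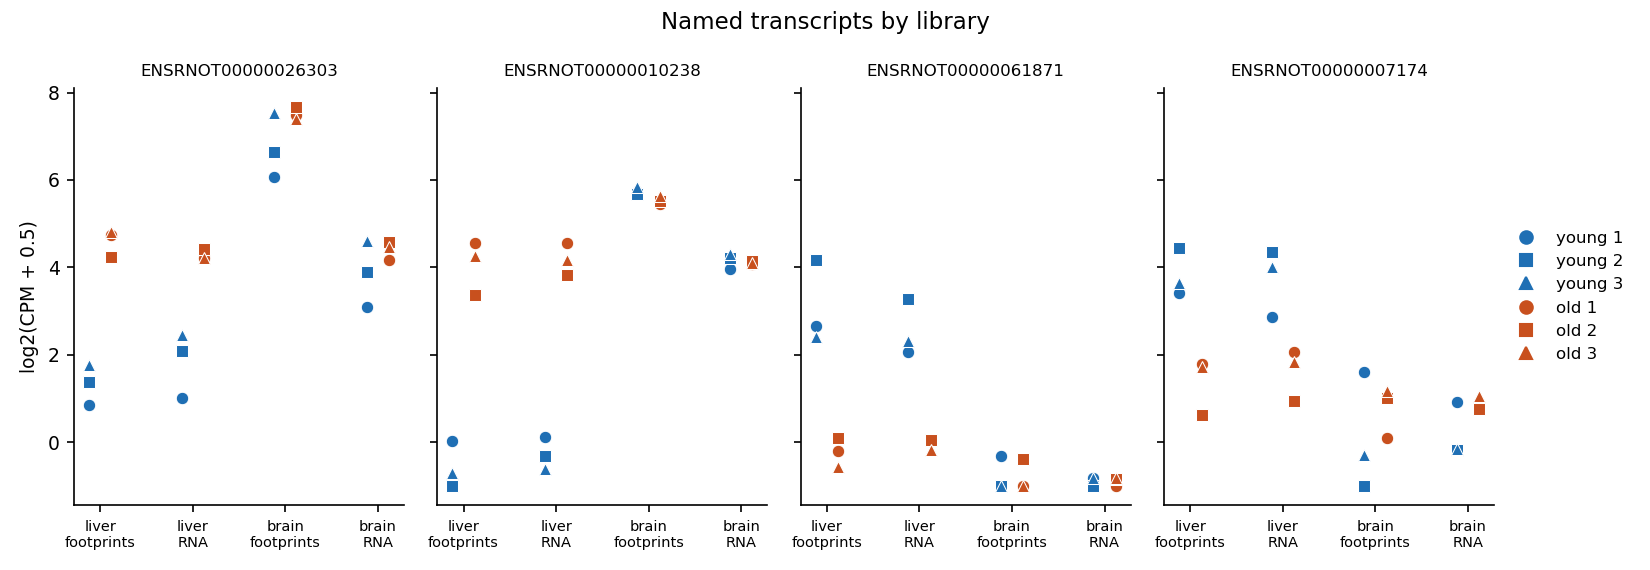
Level of the 4 named transcripts as log2(CPM + 0.5) (vertical axis) in each library, by organ and assay (horizontal axis); blue points are young and orange points old animals, with 1 symbol per animal number. In liver the first 2 transcripts are higher and the last 2 lower in every old library of both assays, and in brain the ages lie close together or overlap.

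Without the animal block, the transcripts called for a difference between organs were ENSRNOT00000010238 and a brain-enriched one. ENSRNOT00000009705 had 13, 38 and 48 footprint counts in young and 2, 4 and 3 in old liver (log2 fold change -3.25, edgeR adjusted p = 0.0876), and 21, 52 and 46 against 7, 3 and 10 in RNA-seq. It went against its class, whose median was 0.18. In brain footprints it lay at 630 ± 24.4 CPM in young and 531 ± 9.69 CPM in old animals (SD, n = 3; log2 fold change -0.24, edgeR adjusted p = 0.0311, in a comparison that called 1.71% of 13570 transcripts). The effects differed by -3.07 (SE 0.407, adjusted p = 0.0169), and the call was lost with the animal as a block (-3.02, adjusted p = 0.133).

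With the block, the 4 calls were ENSRNOT00000010238 (6.57, edgeR adjusted p = 0.0352), ENSRNOT00000026303 (2.79, adjusted p = 0.0234, against 0.120 without the block) and 2 liver-enriched transcripts, which were named after their values were seen. ENSRNOT00000014465 had 1250, 1084 and 810 footprint counts in young and 485, 1007 and 1 in old liver, and 3213, 2344 and 1824 against 2507, 3207 and 8 in RNA-seq. It was nearly without counts in old animal 3 in both assays, while the other old livers lay near the young ones. Brain footprints of it held 1, 0 and 0 counts in young and 7, 84 and 0 in old animals. Its effects differed by -6.47 with the block (edgeR adjusted p = 0.0234) and by -6.65 without it (adjusted p = 0.567). ENSRNOT00000015678 overlapped between ages in liver footprints, with 603, 736 and 586 counts in young and 504, 798 and 579 in old animals (log2 fold change 0.070, edgeR adjusted p = 0.942). Its brain footprints rose from 2, 2 and 3 counts to 18, 52 and 19 (3.48, edgeR adjusted p = 0.0194), so its call (-3.42, adjusted p = 0.0352, or 0.0614 without the block) stands on the brain side, where liver-enriched transcripts were higher in old animals as a class.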

How the data were processed

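Each deposited file held whole-number read counts for 22938 transcripts in 1 library, not normalised, beside a length-like score that no header defines and that was missing for 3097 transcripts, all with 0 counts. The submitters' processing notes name the genome build rn4, DESeq, TopHat2 2.0.10 and Bowtie 1.0.0.0 without their roles, and the sources used here give no counting rule, annotation or handling of duplicates. The protocols mention no molecular identifiers, so PCR copies may be counted.

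Transcripts passing edgeR's filter (minimum count 10, minimum total 15) were tested with edgeR 4.0.16 in R 4.3.3 (two-sided quasi-likelihood F test, robust, TMM factors, Benjamini-Hochberg adjustment over all tested, adjusted p under 0.05). The filtered transcripts held 99.88% to 99.94% of the counts of each liver footprint library. Class values are medians of log2(CPM + 0.5) deviations, compared by two-sided exact permutation over libraries. Standard errors come from the F statistic. Alternatives included DESeq2 1.42.0, limma-voom (limma 3.58.1), other scalings, filters, pseudocounts and depths. The code was tested on simulated data with 200 transcripts changed.

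The labels name 3 animals per group, and p-values measure the spread between these samples only. Titles give footprint and RNA-seq libraries of an animal the same code, and their deviations from the age means correlated at 0.447 to 0.785, each animal best with itself. Between liver and brain footprints the range was -0.025 to 0.147, and young animals 2 and 3 and old animal 1 did not match best with themselves. Interaction tests of age and assay are therefore also given with the animal as a block. Those of age and organ are too, but there the block rests on the titles.

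Named transcripts are the 2 rising and 2 falling with the smallest p among those with a mean log2 CPM of at least 0 and no overlap, with the transcripts called for a difference between organs, with or without the block, added. The comparison, classes and rules were chosen with earlier results of these data known. No sequences are shown, since 0 of the identifiers matched the sequence tables.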

Additional observations from a re-analysis of the deposited data

Results flagged for a closer look

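The comparison of organs of the footprint libraries singled out ENSRNOT00000010238 and ENSRNOT00000009705, because the test of the difference itself, the interaction of age and organ in edgeR, passed an adjusted p of 0.05. For ENSRNOT00000010238 the log2 effect of age was 6.64 larger in liver than in brain (SE 0.608, adjusted p = 0.00079), and 6.57 with the animal as a block (adjusted p = 0.0352). For ENSRNOT00000009705 the effect in liver less that in brain was -3.07 (SE 0.407, adjusted p = 0.0169), with old liver counts of 2, 4 and 3, and the call was lost with the animal as a block (-3.02, adjusted p = 0.133). All 3 old animals were beyond all 3 young ones in liver for both transcripts. This adds no support, since the test used the same counts and the rule that named ENSRNOT00000010238 required it.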

How the results depend on the processing

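Of 139 alternatives for the class and length differences, some of which could not move, 131 stayed within the spread between replicates, 8 moved further and 0 changed sign. Those that moved were the difference under 1 CPM (0.17), at 0.039 with no filter, 0.24 and 0.073 with pseudocounts of 0.1 and 2, 0.084 at equal depth and 0.090 with classes cut on RNA-seq level; the difference from 10 to 100 CPM (-0.028), at -0.046 with no filter; that of brain-enriched transcripts (0.14), at 0.048 with no filter; and that of rho with length (0.012), at 0.0037 within transcripts under 1 CPM. Pseudocounts and scaling factors cannot alter a rank correlation, so for rho those alternatives were bound to give 0.012 again. The spread was the pooled SD of the library values. By it the liver-enriched difference of -0.11 counted as unmoved at -0.055 without old animal 3. With each library left out in turn the difference at 1000 CPM or more ran from -0.31 to -0.17. Counts of single calls were less stable. The 2 transcripts called between ages became 221 with DESeq2, 1 with limma-voom, 14 with no scaling factors, 53 with no filter, 1 with the length trend removed and 74 with the spread taken over 12 footprint libraries, and 0 to 96 with each animal left out. The count of 0 for the ratio of footprints to RNA-seq became 124 with DESeq2, 9 with no scaling factors, 1 with no filter and 0 to 6 with each animal left out; with the animal as a block it was 841, and 43 to 1740 with each animal left out of the blocked fit. The count of 2 for the difference between organs became 385 with DESeq2, 1 with limma-voom, 21 with no scaling factors, 4 with the animal as a block and 0 to 91 with each animal left out. The cause of these changes was not tested. Replicate numbers mark different animals at the 2 ages, whose deviations correlated at -0.032, -0.088 and 0.146; a replicate block on the numbers gave 5 calls between ages. Transcripts under 1 CPM are limited by depth.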
